A study of Mus musculus with 10 samples.

Results

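The genes described here are 33 transcripts that mark T cells, natural killer (NK) cells, B cells and plasma cells, chosen by symbol and matched to 33 of the 27179 NCBI Gene numbers in the count table. They fall into 7 role groups, namely 6 genes of the T cell receptor complex and its signalling, 6 of the T cell surface and costimulation, 3 of CD8 T cells, 4 of CD4 and regulatory T cells, 7 of NK cells and cytotoxic effectors, 5 of B cells and 2 of plasma cells. They were measured by bulk RNA sequencing of whole liver from 5 LKO and 5 control mice, all male, of strain C57BL/6 and fed a NASH diet for 12 weeks. LKO mice carried Lpcat3f/f with Albumin-Cre, and control mice carried Lpcat3f/f without Cre, so both groups had the floxed alleles. The albumin promoter drives Cre in hepatocytes, and the lymphocytes of LKO mice are not its target. The sources used here give neither the age of the mice nor the make-up of the diet, and the labels do not say whether mice of a group were littermates.

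T cells carry an antigen receptor whose signal passes through the CD3 and zeta chains to the kinases Lck and Zap70. CD8 T cells and NK cells kill target cells with perforin and granzymes, CD4 T cells direct other immune cells, and B cells carry surface immunoglobulin, which their plasma cell descendants secrete. The liver holds many NK and CD8 T cells between its hepatocytes, and in steatohepatitis lymphocytes gather around injured tissue.

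The libraries held 26914124 to 46727182 counts, and 15226 genes passed the low-count filter and were tested. Levels are given as CPM, the count relative to library size, after scaling of the libraries by the trimmed mean of M values (TMM). Lpcat3, the check of the deletion, stood at 25.5 to 38.5 CPM in LKO and at 94.1 to 123.9 CPM in control. Among the 21 members tested, control 4 was the highest control for 18 and LKO 3 the highest LKO library for 15, where over all genes tested they were highest in 31.6% and 32.6%. The hepatocyte markers Alb, Apoa1, Ttr and Cyp2e1 summed to 31719 to 48956 CPM in LKO and to 38102 to 61130 CPM in control, with LKO 3 and control 4 the lowest of their groups. Results that rest on control 4 or LKO 3 are therefore given with and without them. Titles carry codes of unstated meaning, A54 for LKO 1, LKO 2 and control 1, A67 for the other LKO and A55 for the other control libraries, so the code and genotype can be told apart in the A54 libraries alone.

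Lymphocyte transcripts were scarce in these livers. A gene was tested where at least 5 libraries held 0.307 CPM, which is 10 counts at the median depth, and 21 of the 33 members passed while 12 did not. The 12 were the CD3 delta chain gene Cd3d, the zeta chain gene Cd247, the T cell surface gene Cd5, Gzmk, the checkpoint receptor genes Ctla4 and Pdcd1, the NK receptor gene Klrd1, Gzma, Gzmb, Ifng, the B cell surface gene Ms4a1 and the plasma cell gene Mzb1. Of the 21 that passed, 14 had more LKO than control libraries over the filter and 15 had fewer than 5 control libraries over it, so counts and medians over these 21 are descriptions of genes partly chosen by their level in LKO. With a stricter filter of at least 1 CPM in 5 libraries, 4 members would have been tested. Interferon gamma (Ifng) had 0 to 4 counts in LKO libraries and 0 to 5 in control libraries. A count of 3, the upper limit that 0 counts allow, equalled 0.0698 CPM in control 5 and 0.113 CPM in control 1, and such limits cover counting error only.

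Per kilobase of exon, the genes of 1 lineage differed widely in level. Zap70 stood highest of the 33, at 1.20 ± 0.471 CPM per kb in LKO and 1.46 ± 0.548 CPM per kb in control (SD, n = 5 each), above the other receptor kinase gene Lck in 5 of 5 LKO and 5 of 5 control libraries. Cd4 came next in control livers, at 0.357 ± 0.159 CPM per kb in LKO and 0.627 ± 0.231 CPM per kb in control. Both exceeded the CD3 epsilon gene Cd3e, with 0.158 ± 0.0591 CPM per kb in LKO and 0.102 ± 0.0452 CPM per kb in control, in all 10 libraries. CD3 epsilon is a chain that all T cells carry, and Cd8a also lay under Cd4 per kb in all 10 libraries. Foxp3 exceeded Cd3e per kb in 3 of 5 LKO and 5 of 5 control libraries. Next below Zap70 and Cd4 in control livers lay Cd22, Cd27, Cd79b and Cd2, with means between 0.383 and 0.419 CPM per kb, whose ranges overlapped. In LKO livers Cd79b and Cd22 came next after Zap70, with 0.755 ± 0.354 and 0.711 ± 0.147 CPM per kb in LKO. The lowest of the 33 was Ctla4 in LKO, at 0.0241 CPM per kb, and Pdcd1 in control, at 0.0106 CPM per kb.

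**Figure D1:**
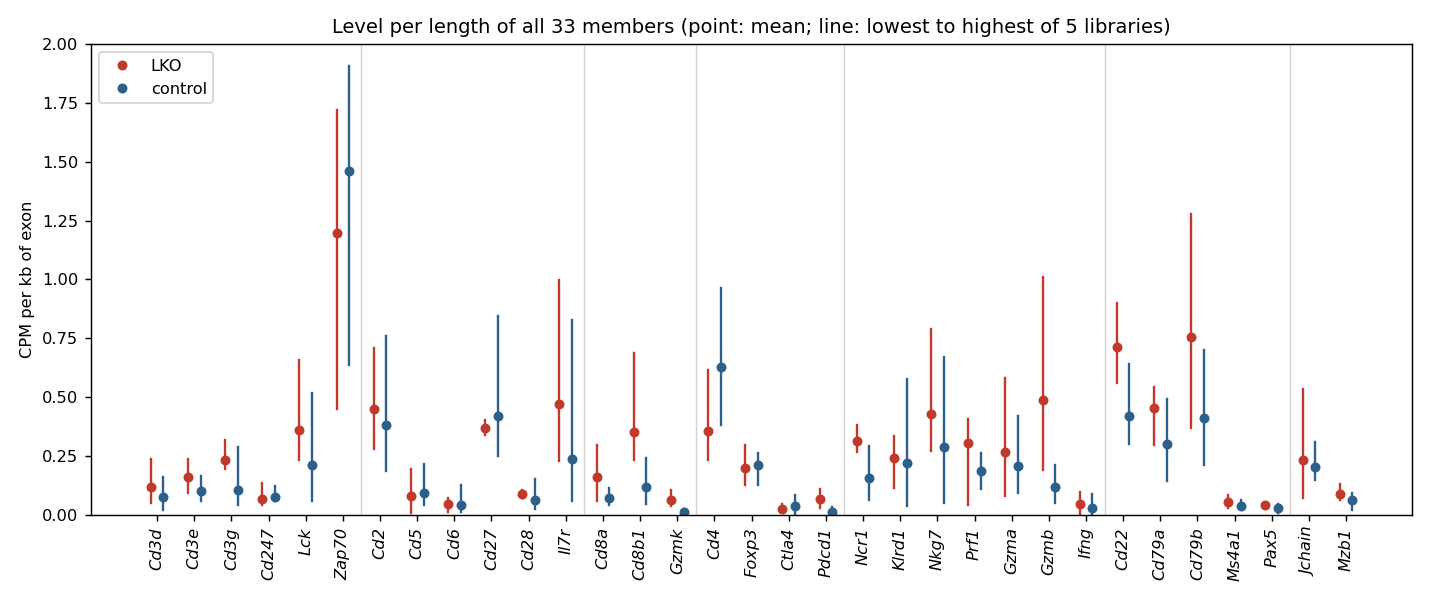
CPM per kb of exon (linear axis) of all 33 members, grouped by role from left to right, with LKO left of control for each gene; points are means and lines run from the lowest to the highest of 5 libraries. Zap70 has the highest mean in both groups, Cd4 has a mean of 0.357 in LKO against 0.627 in control, and most other genes lie under 0.5 CPM per kb.

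Start regions of the genes that stand for 3 lineages and of Cd3g are shown so that the reader can see what these cell-restricted promoters hold. Sequences are RefSeq's for GRCm38.p6, 250 bases before to 50 after a gene's start, 5′ to 3′ on the gene's strand, and 24 of the 33 members had an entry. Capitals mark matches on either strand to 5 motifs, namely GGAAG (core of ETS factors), TGTGGT (RUNX), CAGCTG (an E-box), CCCNNGGG (early B cell factor) and TATAAA. No matches overlapped in the regions shown, which lie at chr6:71373177-71373476 (+), chr7:4337465-4337764 (+), chr7:24897247-24897546 (+) and chr9:44980382-44980681 (-).
Cd8a: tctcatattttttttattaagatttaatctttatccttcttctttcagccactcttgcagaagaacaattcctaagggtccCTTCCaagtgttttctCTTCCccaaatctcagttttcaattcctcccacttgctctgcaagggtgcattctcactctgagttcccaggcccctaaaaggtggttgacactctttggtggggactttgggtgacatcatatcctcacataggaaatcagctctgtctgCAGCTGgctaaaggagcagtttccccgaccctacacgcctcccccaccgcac
Ncr1: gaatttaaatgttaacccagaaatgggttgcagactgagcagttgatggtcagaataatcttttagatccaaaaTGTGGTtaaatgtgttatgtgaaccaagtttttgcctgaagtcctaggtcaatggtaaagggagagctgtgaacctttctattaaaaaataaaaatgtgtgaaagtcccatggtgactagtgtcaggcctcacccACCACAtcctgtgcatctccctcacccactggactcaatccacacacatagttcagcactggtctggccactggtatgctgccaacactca
Cd79a: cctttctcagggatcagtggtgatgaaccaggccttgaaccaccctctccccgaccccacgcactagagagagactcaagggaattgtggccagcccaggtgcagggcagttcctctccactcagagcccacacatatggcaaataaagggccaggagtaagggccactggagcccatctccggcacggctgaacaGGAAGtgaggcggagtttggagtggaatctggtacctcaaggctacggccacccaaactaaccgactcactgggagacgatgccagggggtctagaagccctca
Cd3g: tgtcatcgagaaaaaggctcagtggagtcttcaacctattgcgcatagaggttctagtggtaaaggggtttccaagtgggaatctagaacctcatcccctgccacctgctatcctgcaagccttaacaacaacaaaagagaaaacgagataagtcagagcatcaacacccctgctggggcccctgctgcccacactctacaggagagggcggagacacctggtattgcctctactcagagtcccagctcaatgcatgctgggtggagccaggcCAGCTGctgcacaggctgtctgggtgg
Cd8a held 2 GGAAG matches and 1 CAGCTG, Ncr1 held 2 TGTGGT matches, Cd79a held 1 GGAAG and Cd3g held 1 CAGCTG. Over all 32851 promoter entries, 71.4% held GGAAG, 16.8% TGTGGT, 16.3% CAGCTG, 13.7% CCCNNGGG and 13.6% TATAAA. Of the 24 members, 20 held GGAAG, 7 TGTGGT, 4 CAGCTG, 3 CCCNNGGG and 3 TATAAA, counted in the first entry of each gene. A match is a run of letters and not a shown binding site.

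The comparison of LKO with control asks whether lymphocyte transcripts in a steatohepatitis liver differ when hepatocytes lack Lpcat3. No member passed: 0 of 21 had an adjusted p under 0.05 (edgeR quasi-likelihood test, Benjamini-Hochberg over all 15226 genes), where 0.0657% of all genes tested did. Adjusted p-values of the members ran from 0.132 (Cd22) to 0.913 (Cd6). At an unadjusted p under 0.05 there were 7 of 21, 6 of them higher and 1 lower in LKO, against 22.3% of all genes tested (12.8% higher and 9.50% lower). The 6 were Cd3g, Cd8a, Cd8b1, Ncr1, Cd22 and Cd79b, and the 1 was Cd4. By fold change alone, 17 of 21 members stood higher in LKO, where 49.5% of all genes did, and their median log2 fold change was 0.62 against -0.00 for all genes. Limma voom called 0 of the 21, where it called 0.0328% of all genes, and DESeq2 called 1, Cd22 (adjusted p = 0.0386), where it called 7.79% of all genes. DESeq2 gave no adjusted p for Cd6, Cd8b1, Ncr1, Nkg7 and Pax5, so it could not call them.

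**Figure D2:**
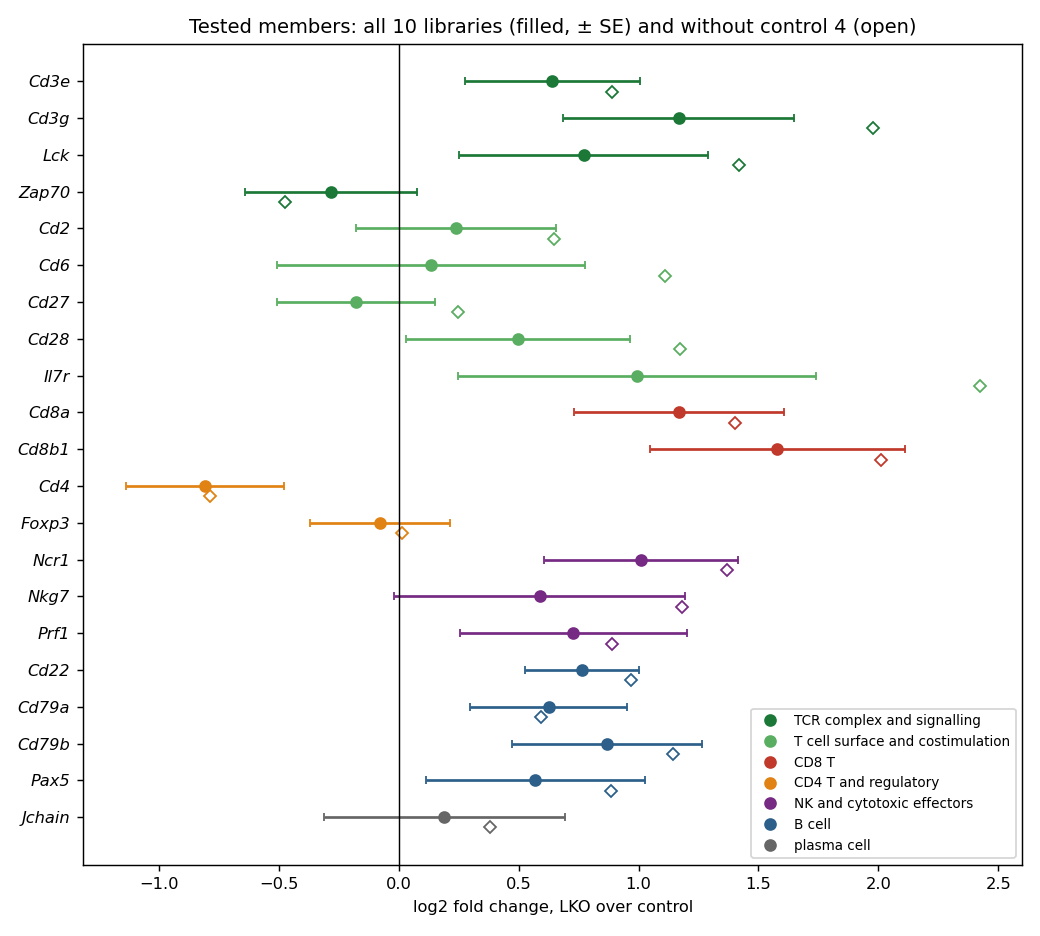
Log2 fold change (LKO over control) of the 21 tested members by role; filled points with bars show the value ± SE from all 10 libraries and open diamonds the value without control 4. The CD8, NK and B cell genes lie right of 0, Cd4 lies left of it at -0.81, and leaving out control 4 moves Il7r from 0.99 to 2.42 and Cd3g from 1.17 to 1.98.

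Many of these values depended on 1 control library. In none of the 21 members were the groups apart with all 10 libraries, where 3.95% of all genes were (1.72% as higher). Against the other 4 controls, every LKO library was higher for 7 of 21 members, namely Cd3g, Lck, Cd28, Il7r, Cd8b1, Ncr1 and Cd22, where this held for 11.1% of all genes. Without control 4, 7 of 23 members tested passed as higher (Cd3g, Cd28, Il7r, Cd8b1, Ncr1, Gzmb and Cd22; edgeR adjusted p from 0.00625 to 0.0440), where 10.2% of all genes did, and 0 passed as lower, where 4.75% did. Gzmb is among the 7 although 0 control libraries lay over the low-count filter, so it entered that fit through LKO alone and its call is no support. Cd3g and Cd8b1 had 1 control library over the filter, control 4, so without it they too entered through LKO alone. Their calls are no support either, with or without LKO 3. Cd28, Il7r and Ncr1 had 2 control libraries over the filter with control 4 counted. Without it they entered mostly through LKO, so the same limit holds for their calls. Without both control 4 and LKO 3, 4 of 18 tested passed as higher (Cd3g, Il7r, Cd8b1 and Cd22) against 9.87% of all genes, and 1, Cd4, passed as lower against 5.73%. Leaving out a control that stands with the other group widens the difference by itself. Without LKO 3 alone, 0 of 21 passed against 0.0719% of all genes, and 3 had an unadjusted edgeR p under 0.05, against 17.2% of all genes.

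Of the receptor complex and its kinases, 4 of 6 were tested and 0 passed. Cd3g, the CD3 gamma chain, stood at 0.628, 0.683, 1.04, 0.738 and 0.732 CPM in LKO 1 to 5, against 0.151, 0.140, 0.202, 0.935 and 0.256 CPM in control 1 to 5. Control 4 lay among the LKO libraries and the other 4 controls lay under all of them. Its log2 fold change was 1.17 (SE 0.48; edgeR adjusted p = 0.192), and without control 4 it was 1.98 (edgeR adjusted p = 0.00625). Without control 4, Cd3g entered the fit through LKO alone. Cd3e had a mean of 0.646 ± 0.241 CPM in LKO and 0.414 ± 0.184 CPM in control (SD, n = 5), and Lck had 1.06 ± 0.506 CPM in LKO and 0.621 ± 0.533 CPM in control. Their log2 fold changes were 0.64 and 0.77 (edgeR adjusted p = 0.309 and 0.387). Zap70 did not share this pattern, with 5.15, 4.26, 3.50, 3.67 and 1.35 CPM in LKO 1 to 5, against 5.66, 5.06, 5.70, 1.90 and 3.51 CPM in control 1 to 5. Control 4, the highest control for Cd3g, Cd3e and Lck, was the lowest for Zap70. The log2 fold change of Zap70 was -0.28 (SE 0.36; edgeR adjusted p = 0.66). Zap70 overlaps the gene model Gm18828 in the annotation, so its level is uncertain. Cd3d had 3 to 16 counts in LKO and 1 to 9 in control libraries, and Cd247 had 7 to 27 in LKO and 8 to 20 in control libraries, both too few for the test.

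**Figure D3:**
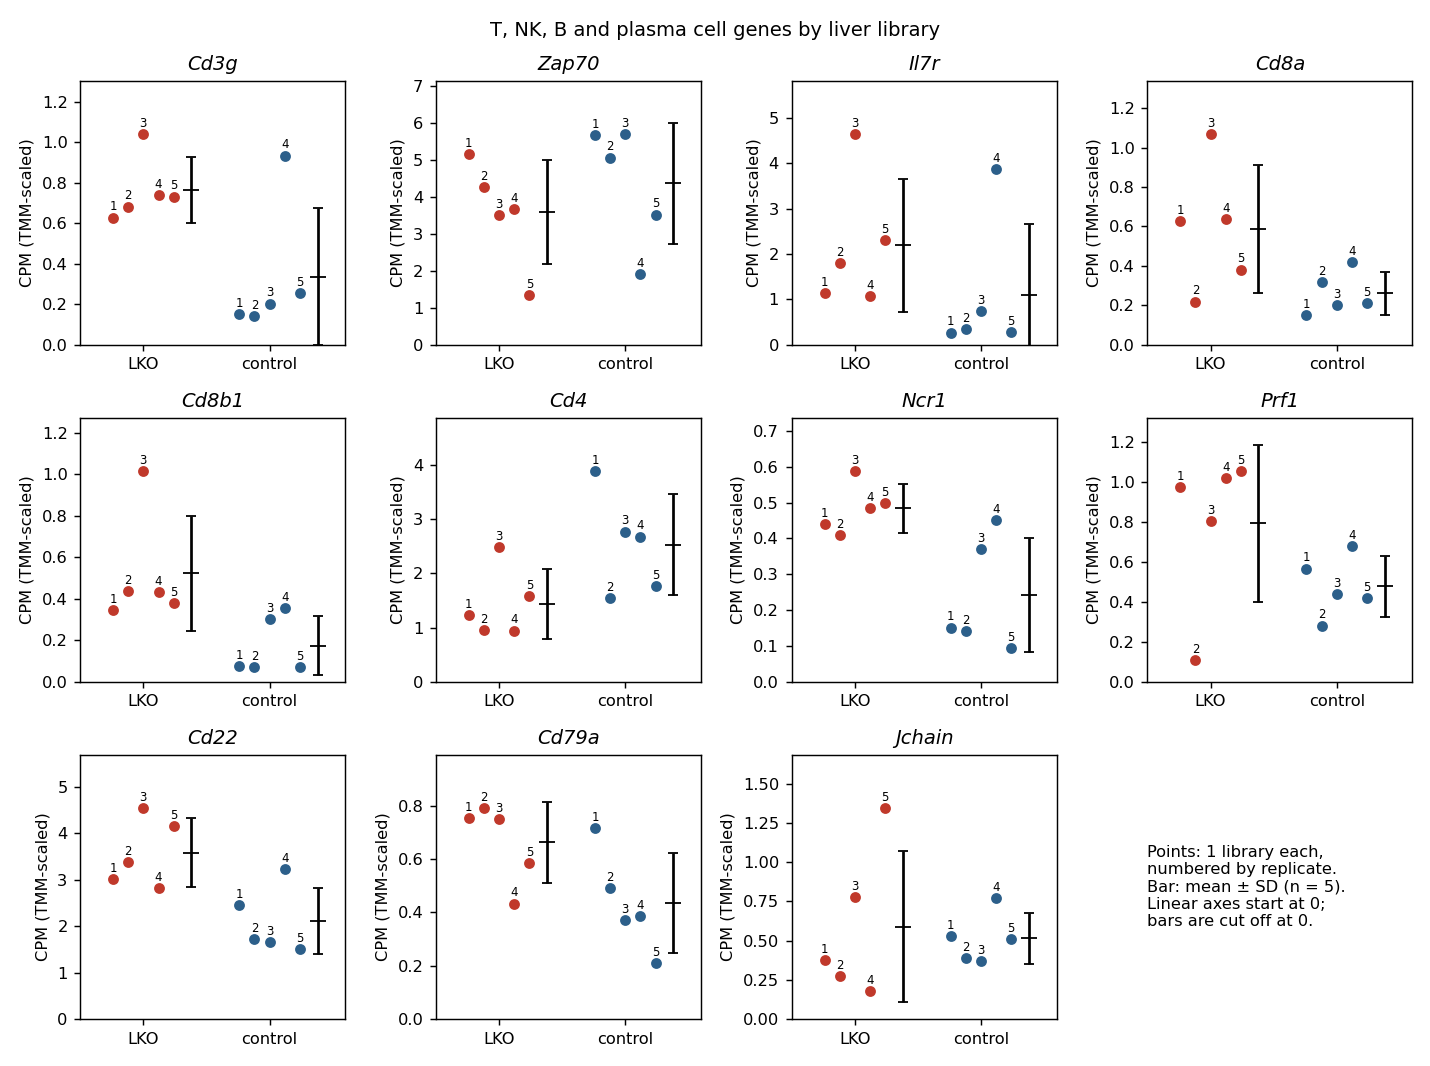
CPM (TMM-scaled, linear axes from 0) of 11 members in each library, LKO left of control, points numbered by replicate, with mean ± SD (n = 5). Control 4 stands above the other controls for Cd3g, Il7r, Cd8a, Cd8b1, Ncr1, Prf1, Cd22 and Jchain but is the lowest control for Zap70, and 4 of 5 LKO libraries lie under 1.6 CPM for Cd4.

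Among the surface and costimulatory genes, 5 of 6 were tested and 0 passed. Il7r, the interleukin 7 receptor of naive and memory T cells, had the smallest p and the highest level of the 5, with 1.13, 1.80, 4.65, 1.07 and 2.31 CPM in LKO 1 to 5, against 0.264, 0.351, 0.742, 3.87 and 0.279 CPM in control 1 to 5. LKO 3 and control 4 were far above the rest of their groups. Its log2 fold change was 0.99 (SE 0.75; edgeR adjusted p = 0.442), against 2.42 without control 4 and 0.52 without LKO 3. Cd28, the receptor for the costimulatory ligands CD80 and CD86, had 0.53 ± 0.0736 CPM in LKO and 0.376 ± 0.328 CPM in control. Cd2, an adhesion receptor of T and NK cells, Cd6 and Cd27, a costimulatory receptor of the tumour necrosis factor receptor family, had log2 fold changes of 0.24, 0.14 and -0.18. Cd27 stood at 0.791 to 0.936 CPM in LKO and at 0.582 to 1.97 CPM in control, and without control 4 its log2 fold change was 0.25. Cd5, an inhibitory receptor of T cells and some B cells, had 1 to 36 counts in LKO and 6 to 33 in control libraries.

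Both chains of the CD8 coreceptor, which binds class I antigen-presenting molecules, had log2 fold changes above 1, and neither passed. Cd8a, the alpha chain, stood at 0.628, 0.218, 1.07, 0.636 and 0.381 CPM in LKO 1 to 5, against 0.151, 0.316, 0.202, 0.419 and 0.209 CPM in control 1 to 5. LKO 2 lay among the controls, and LKO 5 lay under control 4. Its log2 fold change was 1.17 (SE 0.44; edgeR adjusted p = 0.165), and 0.83 without LKO 3. Cd8b1, the beta chain that marks conventional CD8 T cells, stood at 0.345, 0.437, 1.02, 0.433 and 0.381 CPM in LKO 1 to 5, against 0.0755, 0.0702, 0.304, 0.355 and 0.0698 CPM in control 1 to 5. Only LKO 1 was below the highest control, which was control 4. The log2 fold change of Cd8b1 was 1.58 (SE 0.53; edgeR adjusted p = 0.144), against 1.19 without LKO 3 and 2.01 without control 4 (edgeR adjusted p = 0.0358). Here too, the fit without control 4 held Cd8b1 through LKO alone. Gzmk, a granzyme of memory CD8 T cells, had 2 to 5 counts in each LKO library and 0 to 1 in each control library, near the limit of 3 counts.

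Of the 4 genes of CD4 and regulatory T cells, 2 were tested, neither stood higher in LKO and 0 passed. Cd4, the coreceptor for class II molecules, stood at 1.22, 0.956, 2.49, 0.942 and 1.58 CPM in LKO 1 to 5, against 3.89, 1.55, 2.77, 2.68 and 1.77 CPM in control 1 to 5. LKO 3 and LKO 5 lay within the control range and the other 3 LKO libraries under it. The log2 fold change of Cd4 was -0.81 (SE 0.33; edgeR adjusted p = 0.189), -1.10 without LKO 3 and -1.08 without LKO 3 and control 4 (edgeR adjusted p = 0.0408). In the A54 libraries it was -1.79, from LKO 1 and LKO 2 against control 1. Foxp3, the master regulator of regulatory T cells, had 0.902 ± 0.303 CPM in LKO and 0.958 ± 0.267 CPM in control (log2 fold change -0.08, SE 0.29; edgeR adjusted p = 0.889), and it turned to 0.18 with total-count scaling, under which the median of all genes was 0.24. It overlaps Ccdc22 and Flicr, so its counts are uncertain. Ctla4 had 1 to 4 counts in LKO and 0 to 6 in control libraries, and Pdcd1, which encodes PD-1, had 2 to 8 in LKO and 0 to 2 in control libraries.

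In mice, Cd4 RNA is also made by some dendritic cells, so markers of other cell types were read beside it. The 6 dendritic markers summed to 15.5 to 21.4 CPM in LKO and to 11.9 to 21.3 CPM in control, and all 6 had a log2 fold change above 0 (median 0.37). The 6 Kupffer cell markers summed to 271 to 445 CPM in LKO and to 220 to 303 CPM in control (median log2 fold change 0.37, 4 of 6 above 0). The smallest p-values were those of C1qa, Cd5l and Marco in the Kupffer list, at log2 fold changes of 0.66, 0.49 and 1.11, and of Zbtb46, Cd209a and Ccr7 in the dendritic list, at 0.20, 0.98 and 0.71. In both lists 0 genes passed with all libraries, and 1 in each passed as higher without control 4 (edgeR), where 10.2% of all genes did. With all libraries 49.5% of all genes stood above 0. No marker of either list was at 0, and their part in the Cd4 level was not tested.

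Of the NK and cytotoxic genes, 3 of 7 were tested and 0 passed. Ncr1, which encodes the NK receptor NKp46, stood at 0.440, 0.410, 0.588, 0.484 and 0.498 CPM in LKO 1 to 5, against 0.151, 0.140, 0.371, 0.451 and 0.0931 CPM in control 1 to 5. Control 4 was above LKO 1 and LKO 2, and the other controls were under every LKO library. Its log2 fold change was 1.01 (SE 0.405; edgeR adjusted p = 0.184), against 1.37 without control 4 (edgeR adjusted p = 0.0418). Without control 4, Ncr1 entered the fit mostly through LKO, so that call is no support. Prf1, which encodes perforin, stood at 0.974, 0.109, 0.802, 1.02 and 1.05 CPM in LKO 1 to 5, against 0.566, 0.281, 0.439, 0.677 and 0.419 CPM in control 1 to 5. LKO 2 was the lowest of all 10 libraries for Prf1 and the other 4 LKO libraries were the highest. The log2 fold change of Prf1 was 0.73 (SE 0.47; edgeR adjusted p = 0.37), and -0.58 in the A54 libraries, which include LKO 2. Nkg7, a granule protein gene of NK and CD8 T cells, had a log2 fold change of 0.59 (edgeR adjusted p = 0.583).

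Gzmb, the granzyme B gene of activated killer cells, missed the filter, with 4 LKO and 0 control libraries over it. It had 12, 10, 28, 57 and 22 counts in LKO 1 to 5, against 3, 5, 9, 6 and 3 counts in control 1 to 5, so every LKO library had more counts than any control library. Scaled to CPM the groups met, since LKO 2 had 0.273 CPM and control 3 had 0.304 CPM. Fitted with no filter, its log2 fold change was 2.04 (edgeR adjusted p = 0.126). Gzma had 3 to 23 counts in LKO and 3 to 12 in control libraries, and Klrd1, which encodes CD94, had 5 to 16 in LKO and 2 to 23 in control libraries.

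B cell genes lay higher in LKO for 4 of 4 tested, of which 0 passed. Cd22, an inhibitory receptor of mature B cells, had the smallest p of the 21 tested members, with 3.01, 3.39, 4.55, 2.83 and 4.16 CPM in LKO 1 to 5, against 2.45, 1.72, 1.65, 3.22 and 1.51 CPM in control 1 to 5. Control 4 was above LKO 1 and LKO 4, and the other 4 controls were under every LKO library. Its log2 fold change was 0.77 (SE 0.24; edgeR adjusted p = 0.132), and 0.97 without control 4 (edgeR adjusted p = 0.0162). Cd79a, a signalling chain of the B cell receptor, stood at 0.754, 0.792, 0.749, 0.433 and 0.586 CPM in LKO 1 to 5, against 0.717, 0.492, 0.371, 0.387 and 0.209 CPM in control 1 to 5. For this gene control 4 was not high, and the highest control was control 1. The log2 fold change of Cd79a was 0.62 (SE 0.33; edgeR adjusted p = 0.275), and 0.59 without control 4. Its partner chain Cd79b had 1.08 ± 0.506 CPM in LKO and 0.588 ± 0.28 CPM in control (log2 fold change 0.87; edgeR adjusted p = 0.223). Pax5, the transcription factor of B cell identity, had a log2 fold change of 0.57, and Ms4a1, which encodes CD20, had 6 to 18 counts in LKO and 5 to 10 in control libraries.

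Plasma cell genes gave 1 tested member. Jchain, which links secreted IgA and IgM into polymers, stood at 0.377, 0.273, 0.776, 0.178 and 1.35 CPM in LKO 1 to 5, against 0.529, 0.386, 0.371, 0.774 and 0.512 CPM in control 1 to 5. The LKO libraries spread on both sides of the controls, with LKO 5 the highest and LKO 4 the lowest of all 10. Its log2 fold change was 0.19 (SE 0.50; edgeR adjusted p = 0.842), and -0.36 without LKO 5. Mzb1, a chaperone gene of antibody assembly, had 3 to 5 counts in LKO and 1 to 3 in control libraries.

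To compare the lineages, 1 gene of each was set against that of another in the same library, with Cd8a, Cd4, Ncr1 and Cd79a and all 6 pairs, by an exact two-sided permutation test over all assignments of the 10 libraries and Benjamini-Hochberg adjustment over the 6. The smallest p this allows is 0.00794. Values are differences in log2 CPM with a prior count of 2. Cd8a minus Cd4 was -0.90, -1.87, -1.17, -0.53 and -1.90 in LKO 1 to 5, against -4.23, -2.10, -3.43, -2.52 and -2.77 in control 1 to 5. Every LKO library lay above every control library, control 4 included, so relative to Cd8a, Cd4 was lower in LKO. The group means differed by 1.73 (exact permutation p = 0.00794, adjusted p = 0.0238), and without any 1 library the difference was 1.43 to 1.96 (exact permutation adjusted p from 0.0159 to 0.0476).

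Cd4 also stood lower relative to the NK and the B cell gene. Cd4 minus Ncr1 was 1.36, 1.11, 1.98, 0.88 and 1.56 in LKO 1 to 5, against 4.23, 3.01, 2.72, 2.42 and 3.59 in control 1 to 5. The groups did not overlap, and their means differed by -1.81 (exact permutation p = 0.00794, adjusted p = 0.0238). Cd4 minus Cd79a was 0.66, 0.25, 1.66, 1.02 and 1.35 in LKO 1 to 5, against 2.35, 1.54, 2.72, 2.62 and 2.77 in control 1 to 5. Here LKO 3 lay just above control 2, and the means differed by -1.41 (exact permutation p = 0.0159, adjusted p = 0.0317). These 3 results share the values of Cd4 and are not independent of one another. Cd4 exceeded Cd3e per kb in 5 of 5 LKO and 5 of 5 control libraries, and how much of its RNA came from CD4 T cells was not tested. With Cd8b1 and Cd79b in place of Cd8a and Cd79a, the differences from Cd4 were 2.23 and -1.61 (exact permutation adjusted p = 0.0238 and 0.0357). In the A54 libraries the differences for Cd8a minus Cd4, Cd4 minus Ncr1 and Cd4 minus Cd79a were 2.85, -2.99 and -1.89, from 2 LKO and 1 control library and with no test. That control, control 1, had the highest Cd4 level of all 10 libraries, 3.89 CPM. It also gave the control values farthest from LKO for Cd8a minus Cd4 and Cd4 minus Ncr1. The signs of Cd8a and Cd4 were already known when the pairs were set, so the pair tests are not independent evidence. Where the groups did not overlap, the p was the smallest possible whatever the size of the difference. Cd8a passed the low-count filter with 4 LKO and 1 control library over it, Ncr1 with 5 and 2, and Cd8b1 with 5 and 1. These genes thus entered the pairs mostly through LKO, where they are high, and the exact permutation p-values carry that limit too.

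The CD8, NK and B cell genes were not told apart from one another. Cd8a minus Ncr1 averaged 0.11 ± 0.64 in LKO and 0.18 ± 0.68 in control (SD, n = 5; difference -0.08, exact permutation p = 0.849, adjusted p = 0.849). For Cd8a minus Cd79a the means were -0.29 ± 0.87 in LKO and -0.61 ± 0.79 in control (difference 0.33; exact permutation p = 0.54, adjusted p = 0.648). For Ncr1 minus Cd79a they were -0.39 ± 0.40 in LKO and -0.79 ± 0.90 in control (difference 0.40; exact permutation p = 0.397, adjusted p = 0.595). Each of these 3 differences was smaller than the SD of its control libraries, which does not show that the lineages are alike.

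**Figure D4:**
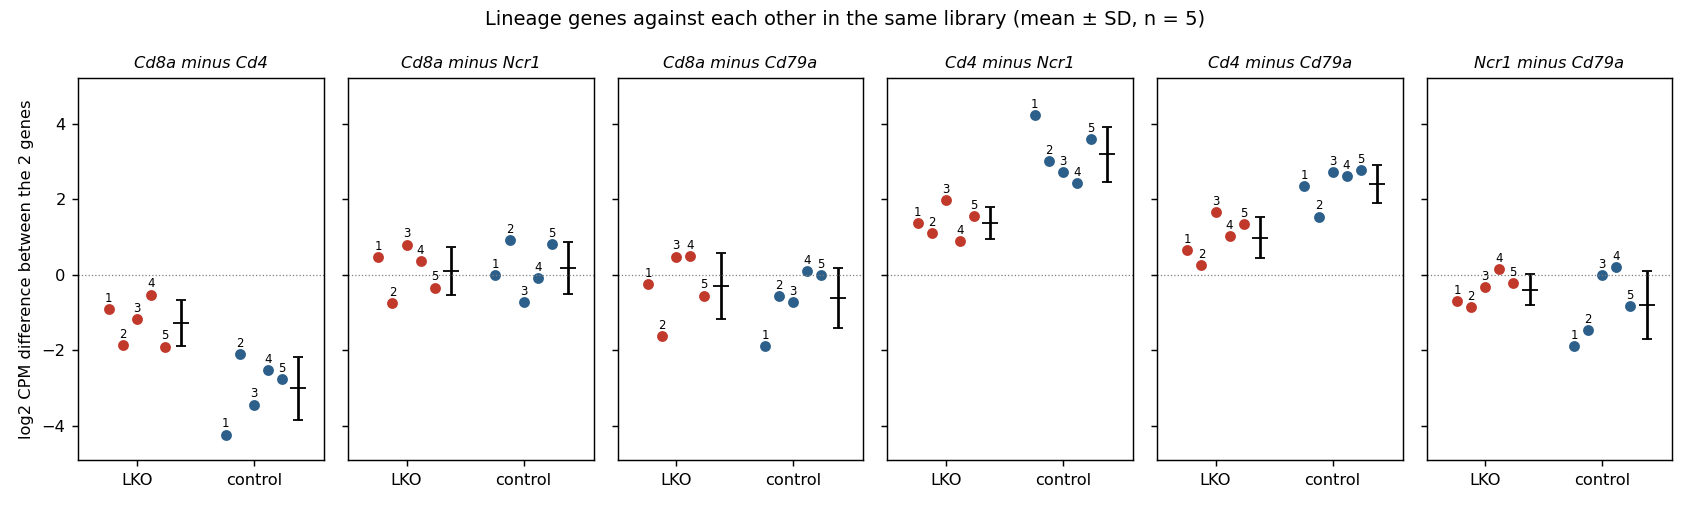
Difference in log2 CPM between the genes of each pair in the same library, LKO left of control, points numbered by replicate, with mean ± SD (n = 5). The groups are apart for Cd8a minus Cd4 and for Cd4 minus Ncr1, nearly so for Cd4 minus Cd79a, and overlap in the 3 pairs without Cd4.

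Further genes of the same lineages gave 0 calls in each list with all 10 libraries (edgeR, adjusted p over all genes), where 0.0657% of all genes passed. Without control 4, 1 of 8 constant genes, 5 of 18 other T cell genes, 0 of 4 other NK genes and 1 of 18 other B and plasma cell genes passed as higher, and 1 of the last list passed as lower. Of all genes, 10.2% passed as higher and 4.75% as lower in that fit. Without control 4 and LKO 3, the numbers that passed in these lists were 0 of 8, 3 of 17, 0 of 3 and 2 of 18. There 9.87% of all genes passed as higher and 5.73% as lower. Of 18 constant genes of antigen receptors, 8 were tested and all 8 had a log2 fold change above 0 (median 0.91, 2 with an unadjusted p under 0.05). With all libraries, 49.5% of all genes tested stood above 0 and 22.3% had an unadjusted edgeR p under 0.05. The immunoglobulin light chain gene Iglc3 had 0.52 CPM in LKO and 0.261 CPM in control on average, Ighm, the heavy chain of IgM, had 9.16 CPM in LKO and 6.54 CPM in control, and Igkc, the kappa chain, had 5.49 CPM in LKO and 2.98 CPM in control. Their edgeR adjusted p-values were 0.157, 0.221 and 0.229, and reads of near-identical constant genes such as Iglc2 and Iglc3 may have been split. The T cell receptor alpha constant gene Trac had 0.989 CPM in LKO and 0.51 CPM in control, a gene named after its value was seen. Of 28 other T cell genes, 18 were tested, with 12 above 0, a median of 0.20 and 0 at an unadjusted p under 0.05. The smallest p-values among them were those of Itgae (log2 fold change 0.60), the integrin of tissue-resident T cells, the chemokine receptor gene Cxcr3 (1.49) and the checkpoint gene Havcr2 (1.08). Of 12 other NK genes, 4 were tested (median 0.22), led by Klrb1c, Klrk1 and Il18rap at 0.62, 0.27 and 0.17. Of 21 other B and plasma cell genes, 18 were tested, with 11 above 0, a median of 0.34, and 5 higher and 1 lower at an unadjusted p under 0.05. Of all genes tested, 12.8% were higher and 9.50% lower at that limit. Cd72, a B cell coreceptor that macrophages also carry, stood at 0.94, Bank1 at 0.46 and Fcmr, the IgM receptor gene, at 0.89.

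Genes of other leukocytes were read beside the members. The 9 pan-leukocyte genes, which include the CD45 gene Ptprc, summed to 97.3 to 172 CPM in LKO and to 59.1 to 156 CPM in control, where control 4 gave 156 CPM and the other controls at most 75.5 CPM. All 9 had a log2 fold change above 0 (median 0.75), Cd52, Cd48 and Rac2 with the smallest p at 0.91, 0.80 and 0.75, and 0 passed (edgeR adjusted p from 0.132). Without control 4, 8 of the 9 passed as higher with a median of 1.05, and without control 4 and LKO 3 also 8 passed. Of all genes, 10.2% passed as higher in the first of these fits and 9.87% in the second, and 49.5% stood above 0 with all libraries. The 6 markers of recruited macrophages summed to 157 to 369 CPM in LKO and to 50.2 to 260 CPM in control, with control 4 at 260 and LKO 3 at 369 CPM. Lyz2 (1.32), Cd68 (0.76) and Ccr2 (1.23) had their smallest p-values, and 0 of the 6 passed with all libraries, while 6 of 6 passed without control 4 and 6 of 6 without control 4 and LKO 3. The shares of all genes that passed as higher in these 2 fits were again 10.2% and 9.87%. Of 4 plasmacytoid dendritic markers 2 were tested, Ccr9 at 0.26 and Siglech at 0.38, and of the 4 neutrophil markers S100a8, S100a9 and Csf3r stood at 2.07, 1.89 and 0.69. Ly6g missed the low-count filter, with 0 counts in every control library and hardly any in LKO. Of these 3 tested neutrophil genes 0 passed with all libraries and 3 without control 4, where 10.2% of all genes passed as higher, and of the plasmacytoid genes 0 passed either way. Whether the members' values follow from this wider leukocyte signal was not tested. In bulk tissue, more cells of a type and more RNA per cell cannot be told apart.

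**Figure D5:**
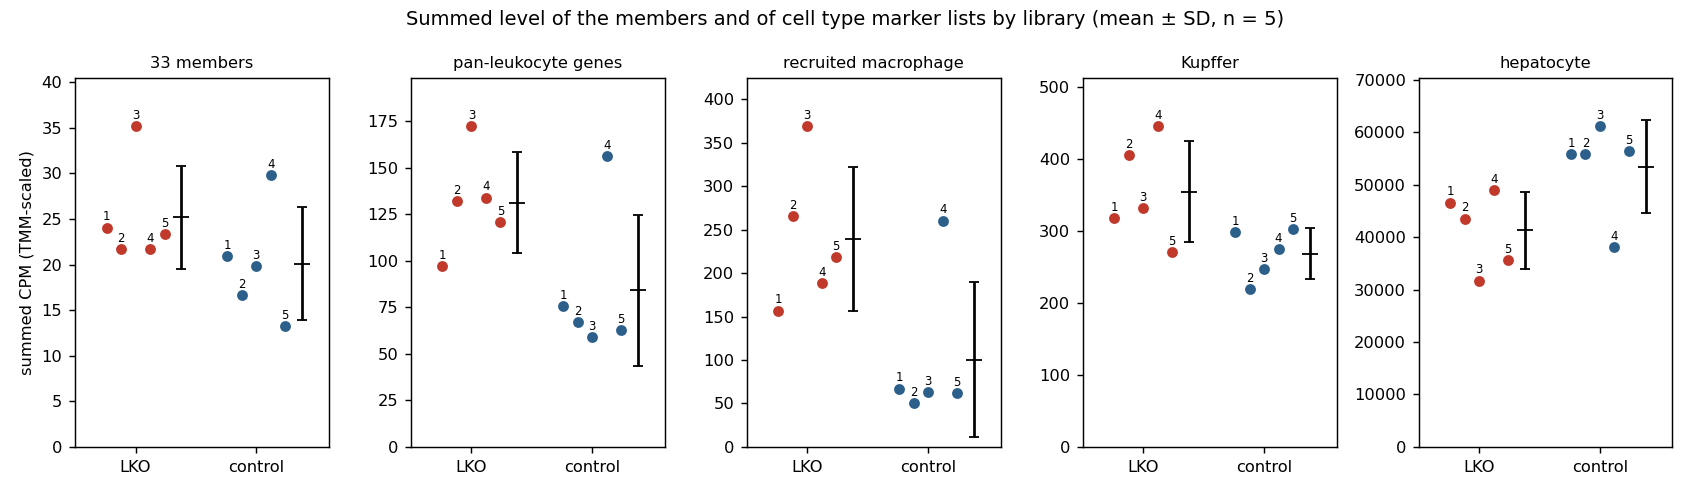
Summed CPM (TMM-scaled, linear axes from 0) of the 33 members and of 4 marker lists in each library, LKO left of control, points numbered by replicate, with mean ± SD (n = 5). Control 4 stands with the LKO libraries in the members, pan-leukocyte and recruited macrophage sums, and the hepatocyte sum is lowest in LKO 3 within LKO and in control 4 within control.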

How the data were processed

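RNA of frozen liver was depleted of ribosomal RNA, made into stranded libraries and read from 1 end, per the labels' protocols. The deposited table holds whole-number counts per NCBI Gene number, not normalized; bcl2fastq 2.20, DESeq2 and the build GRCm39 are listed per the submitters' processing notes, and the aligner, counter, strand setting and annotation are named in no source used here. All 10 columns matched a sample by title and 0 were unused. Symbols came from a RefSeq table (GRCm38.p6), which matched 25275 of 27179 genes; unmatched genes held 0.693% of counts and stayed in. Exon lengths are the union of exons in GENCODE M21 and serve levels per kilobase alone. Among the members, 8 overlap another gene and are uncertain to that extent (Cd247, Lck, Zap70, Cd27, Foxp3, Gzma, Ms4a1 and Pax5).

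Tests used edgeR 4.0.16 in R 4.3.3 with filterByExpr, TMM and the quasi-likelihood F test (legacy option, two-sided) on genotype alone. The Benjamini-Hochberg procedure covered all 15226 genes tested, and 0.05 was the limit. Each standard error was the log2 fold change over the root of F. Alternatives used DESeq2 1.42.0, limma 3.58.1 voom, other scalings, filters and libraries. The members, lists and pairs were chosen with earlier results of these data known. Named genes were the lineage genes, per role the tested members with the smallest p and the highest level, and up to 3 genes of smallest p from each other list. The script was tested on simulated counts of this comparison with 15113 genes: of 99 genes set to a 2-fold change 57 were called, of 95 set to 4-fold 89, and 6 calls were false. The changed genes were drawn from genes of any level, so these rates need not hold for genes as low as the members. No pair of libraries agreed within sampling noise (chi-square per degree of freedom at least 34.7 in LKO and 50.2 in control). The labels do not give the origin of each mouse, so the p-values here cover only variation between the 10 samples, which may be technical. Figures were drawn with matplotlib 3.10.9.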

Additional observations from a re-analysis of the deposited data

Results flagged for a closer look

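In 7 of 42 groups of 5 libraries examined, 1 library lay farther from the other 4 than Dixon's limit of 0.71 of the range. For independent, normally distributed values chance gives about 1 in 20 groups. These groups are low counts of genes read in the same libraries, so that rate need not hold here. Control 4 was the one in 4 of the 7. Its Cd3g level was 0.935 CPM, where the other controls had 0.140 to 0.256 CPM, and its Cd6 level was 0.999 CPM, where they had 0.0755 to 0.256 CPM. For Cd27 it had 1.97 CPM against 0.582 to 0.944 CPM, and for Il7r 3.87 CPM against 0.264 to 0.742 CPM. LKO 3 was apart in 2, with 1.04 CPM of Cd3g where the other LKO libraries had 0.628 to 0.738 CPM, and 1.02 CPM of Cd8b1 where they had 0.345 to 0.437 CPM. LKO 2 was apart in 1, with 0.109 CPM of Prf1 where the other LKO libraries had 0.802 to 1.05 CPM.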

How the results depend on the processing

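Of the 21 tested members, 0 passed under other scalings, filters, limma voom, edgeR without the legacy option, an adjusted p under 0.1, the replicate block or the title code as a covariate. Their count was 1 with DESeq2 and, chosen after seeing the data, 5 without control 4 and LKO 3; without 1 library it was 0 to 7 (7 without control 4, 0 without any other). The number of all genes called was 10, and 31 with no filter, 20 with at least 1 CPM in 5 libraries, 1186 with DESeq2, 5 with limma voom, 296 at an adjusted p under 0.1, 0 with the title code as covariate (edgeR; 760 genes and 2 members at an unadjusted p under 0.05), 2363 without control 4 and LKO 3, and 2 to 2296 without 1 library (2296 without control 4, 86 without LKO 1). Members tested were 4 with at least 1 CPM in 5 libraries and 33 with no filter. The cause of these shifts was not tested.

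With the replicate number as a block, 2 genes and 0 members passed. Libraries of the same number did not deviate together in every pair (correlations from -0.40 to 0.42), which does not settle whether the numbers pair them. By sign flips within these pairs, Cd8a minus Cd4, Cd4 minus Ncr1 and Cd4 minus Cd79a kept differences of 1.73, -1.81 and -1.41 with exact permutation adjusted p = 0.125, where the smallest unadjusted p possible is 0.0625. Without control 4 and LKO 3 they were 1.83, -2.15 and -1.52 (exact permutation adjusted p = 0.0571 for each, where the smallest unadjusted p possible is 0.0286 and all 3 were at it). They passed with other scalings and prior counts; Cd4 against Klrd1 was not run, since Klrd1 missed the low-count filter. Without 1 library they ran from 1.43 to 1.96, -2.01 to -1.55 and -1.62 to -1.23, and Cd8a minus Ncr1 ran from -0.30 to 0.14.

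Among single members, log2 fold changes that turned sign were those of Cd27 (0.22 without control 4 and LKO 3), Foxp3 (0.18 with total counts), Prf1 (-0.087 with the title code, -0.58 in A54), Pax5 (-0.027 with the title code, -0.029 in A54) and Jchain (-0.15 with voom, -0.028 with the replicate block, -0.70 with the title code, -0.63 in A54). Without 1 library, Cd6 ran from -0.10 to 1.11, Cd27 from -0.32 to 0.25, Foxp3 from -0.28 to 0.041 and Jchain from -0.36 to 0.42. In the A54 libraries alone, 2 LKO and 1 control with no test, the 21 tested members had a median of 0.37. All genes had a median of -0.01 in these libraries. There Cd3e, Cd22 and Cd79a fell to 0.055, 0.37 and 0.10, and Cd6, Cd28 and Cd79b rose to 1.68, 1.37 and 2.16. At this depth 12 members could not be tested.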

Other observations

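Signals that draw or keep lymphocytes were read in a list of 18 genes, of which 17 were tested and 0 passed (edgeR quasi-likelihood test, Benjamini-Hochberg; lowest adjusted p = 0.0999). Without control 4, 7 of 17 passed as higher, and without control 4 and LKO 3, 6 of 16 passed. Of all genes, 10.2% and 9.87% passed as higher in these 2 fits, and 49.5% stood above 0 with all libraries. Of the 17, 14 had a log2 fold change above 0 with a median of 0.42, and 6 had an unadjusted p under 0.05 as higher, where 12.8% of all genes did. Cd86, the costimulatory ligand of CD28 on antigen-presenting cells, had 5.56 CPM in LKO and 3.01 CPM in control on average (log2 fold change 0.88; edgeR adjusted p = 0.0999). Ccl19, the chemokine that guides CCR7-bearing T cells, had 1.51 CPM in LKO and 0.869 CPM in control (0.79; edgeR adjusted p = 0.112), and for both genes the lowest LKO library lay above the highest control, where 1.72% of all genes were. Vcam1, the endothelial ligand of the lymphocyte integrin VLA-4, had 50.8 CPM in LKO and 26.8 CPM in control (0.92; edgeR adjusted p = 0.144). Cxcl9, a ligand of Cxcr3, had 24.8 CPM in LKO and 23.1 CPM in control (0.10), and was named after its value was seen. The list summed to 105 to 214 CPM in LKO and to 72.8 to 184 CPM in control, with control 4 at 184 CPM.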
